A study of Mus musculus with 12 samples.

Results

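Open chromatin was examined around 8 genes that define T cells: Cd3e, Cd3d, Cd3g, Cd4, Bcl11b, Runx1, Runx3 and Ets1. The genes were chosen as shared T cell identity genes, and their neighbourhoods were fixed as 6 windows on the mouse build NCBIM37, since the 3 Cd3 genes lie side by side in 1 window. Every peak of 12 ATAC-seq libraries that overlapped a window was taken, and overlapping peaks were merged into regions. The windows held 84 regions. Peaks from 2 or more libraries supported 66 of them, and these are described here, out of 32787 such regions (kept regions) in the whole data set. A window also takes in neighbouring genes, so a region is described by its window and not assigned to a gene.

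ATAC-seq uses the Tn5 transposase to cut accessible DNA, so that a peak marks a stretch of open chromatin. The 4 groups, with 3 libraries each, were KO Treg, WT Treg, KO Tconv and WT Tconv. All animals carried an EGFP reporter in Foxp3 (Foxp3-IRES-EGFP), so EGFP marks cells that express Foxp3, the factor that defines regulatory T cells. Treg libraries came from GFP-positive and Tconv libraries from GFP-negative CD4+ T cells of the spleen, enriched by negative selection and sorted at 100000 cells per library. KO animals carried the genotype labelled Lrrc32+ 70k enhancer KO, a deletion of an enhancer near Lrrc32, which encodes the TGF-beta carrier GARP, and WT animals did not. Tconv denotes conventional T cells and Treg regulatory T cells. The labels do not give age, sex or whether each library came from a separate animal, so the spread between libraries may in part be technical. GFP-negative and GFP-positive cells may each be mixtures, since the labels name no marker that separates naive from effector cells. Markers of other cell types were not analysed here, because no gene positions on NCBIM37 were used.

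CD3 epsilon, delta and gamma are the signalling chains that carry the T cell receptor to the surface, and CD4 is the co-receptor that binds MHC class II. Bcl11b is a zinc finger factor that commits thymic progenitors to the T lineage and is kept on in mature T cells. Runx1 and Runx3 are related DNA-binding factors. In mouse T cells Runx1 acts in CD4+ cells and is a partner of Foxp3, while Runx3 represses Cd4 in the CD8 lineage. Ets1 is the founder of the ETS family, is abundant in resting lymphocytes and binds at many T cell genes, the T cell receptor genes among them.

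RefSeq promoter sequences on GRCm38.p6 were matched by symbol for 6 of the 8 genes, with 8 promoters in all. The 3 Cd3 promoters are shown because these genes share a window, and those of Runx3 and Runx1 because the pair belongs to 1 factor family. These were picked after the matches had been seen. Each runs 250 bases up to the listed start, 5′ to 3′, with capitals for the letters GGAA (the core of ETS family sites) and TGTGGT (a RUNX site) on either strand. These positions are on GRCm38.p6 and cannot be set against the peaks, which are on NCBIM37.
Cd3e, chr9:45009612-45009861, minus strand: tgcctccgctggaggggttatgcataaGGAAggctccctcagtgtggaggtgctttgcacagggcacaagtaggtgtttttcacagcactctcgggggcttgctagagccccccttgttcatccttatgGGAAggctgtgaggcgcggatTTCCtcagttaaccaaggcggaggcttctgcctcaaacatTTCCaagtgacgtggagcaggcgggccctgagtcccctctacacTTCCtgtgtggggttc
Cd3d, chr9:44981536-44981785, plus strand: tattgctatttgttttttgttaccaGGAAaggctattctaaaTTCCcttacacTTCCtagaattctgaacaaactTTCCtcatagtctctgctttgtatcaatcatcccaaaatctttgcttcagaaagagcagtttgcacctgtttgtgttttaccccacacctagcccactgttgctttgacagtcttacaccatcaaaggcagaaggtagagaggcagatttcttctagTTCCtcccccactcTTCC
Cd3g, chr9:44980432-44980681, minus strand: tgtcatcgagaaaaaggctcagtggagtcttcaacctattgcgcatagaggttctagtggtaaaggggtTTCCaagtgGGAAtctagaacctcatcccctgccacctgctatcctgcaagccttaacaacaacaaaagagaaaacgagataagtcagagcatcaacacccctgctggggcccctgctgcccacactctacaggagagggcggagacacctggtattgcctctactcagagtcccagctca
Runx3, upstream start, chr4:135120395-135120644, plus strand: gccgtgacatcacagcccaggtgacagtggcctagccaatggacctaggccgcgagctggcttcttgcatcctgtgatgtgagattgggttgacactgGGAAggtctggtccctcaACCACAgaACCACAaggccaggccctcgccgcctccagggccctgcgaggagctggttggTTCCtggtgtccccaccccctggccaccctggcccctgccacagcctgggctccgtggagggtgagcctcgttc
Runx3, downstream start, chr4:135152295-135152544, plus strand: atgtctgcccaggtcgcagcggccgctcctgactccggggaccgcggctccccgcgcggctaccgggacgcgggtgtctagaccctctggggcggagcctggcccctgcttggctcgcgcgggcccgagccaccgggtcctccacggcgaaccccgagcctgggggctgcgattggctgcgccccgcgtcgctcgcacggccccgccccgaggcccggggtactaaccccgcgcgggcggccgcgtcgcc
Runx1, upstream start, chr16:92826075-92826324, minus strand: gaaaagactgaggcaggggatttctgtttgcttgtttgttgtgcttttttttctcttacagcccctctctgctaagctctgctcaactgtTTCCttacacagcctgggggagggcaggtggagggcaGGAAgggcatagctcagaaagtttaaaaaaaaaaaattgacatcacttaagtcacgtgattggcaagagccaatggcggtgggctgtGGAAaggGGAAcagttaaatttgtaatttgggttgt
Runx1, downstream start, chr16:92697330-92697579, minus strand: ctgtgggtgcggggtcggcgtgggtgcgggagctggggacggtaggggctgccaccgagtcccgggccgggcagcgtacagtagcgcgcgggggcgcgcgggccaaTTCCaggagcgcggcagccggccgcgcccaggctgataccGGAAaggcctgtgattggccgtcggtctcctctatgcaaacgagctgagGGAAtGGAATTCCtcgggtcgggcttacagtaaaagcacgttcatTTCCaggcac

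GGAA was found 5 times before Cd3e, 6 times before Cd3d and 2 times before Cd3g. It was found 2 times before the upstream and 0 times before the downstream start of Runx3, and 4 times before the upstream and 6 times before the downstream start of Runx1. The Bcl11b promoter, which is not shown, held it 4 times. That short core is common: 93.4% of the 32851 RefSeq promoters held at least 1 match in the same 250 bases, with a median of 3. Longer ETS letters were rarer. ACAGGAAGT, which contains GGAA, was found 1 time, before Cd3e, and in 0.794% of all promoters, and CCGGAAGT, which also contains GGAA and was found in 2.88%, had 0 matches in the 8 promoters. TGTGGTT, which contains TGTGGT, was found 2 times before the upstream start of Runx3, seen in capitals as the reverse complement ACCACA. Of all promoters, 4.4% held it at least 1 time and 0.137% at least 2 times. The shorter TGTGGT was in 14.0% of promoters and TGCGGT, another RUNX form, in 5.1%, and TGTGGT was found in no other of the 8 promoters and TGCGGT in none of them. These matches describe letters and not bound sites.

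Regions in the windows were denser than over the whole data set, and their median rank within the lists was under that of all kept regions. The 66 regions lay in 900 kb of windows, a density of 7.33 per 100 kb, against 1.24 per 100 kb over the whole data set, counted up to the last region of each chromosome. Windows around other genes were not compared, so the density cannot be read as particular to these genes. Of the 66 regions, 26 (39.4%) were shared, meaning present in 11 or 12 of the 12 libraries, beside 45.1% of all kept regions. A further 40 regions had a peak in 2 to 10 libraries. The median width was 654 bp, against 750 bp over all kept regions. Strength was described by the percentile of the authors' −log10 p within its own list, where 100 marks the peak with the highest value and a region takes its strongest peak. Lists differ in length, so percentiles set side by side are a description and not a test. In bulk libraries, fewer cells with an open region and less opening per cell cannot be told apart. The median of the mean percentiles was 25.2 over the 66 regions, against 37.5 over all kept regions. It was 46.3 over the 26 shared regions, against 66.0 over all 14780 shared regions, and 16.7 over the other 40 regions, against 22.6 over all kept regions of 2 to 10 libraries. A mean percentile of 75 or more was reached by 1 of the 66 regions (1.52%), against 16.2% of all kept regions.

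KO Treg replicate 2 stood apart from the other libraries. It held 5262 peaks, against 21269 to 27605 in the other 11 libraries, and had a peak in 2 of the 66 regions (3.03%), against 14.5% of all kept regions. In the other 11 libraries, 34 to 48 of the 66 regions had a peak, the lowest number in WT Treg replicate 3 and the highest in KO Tconv replicate 2 and WT Tconv replicate 1. Read depth is unknown, and a region just under the lowest −log10 p listed, about 5 in each list, reads as absent. All 26 shared regions had a peak in each of these 11 libraries, and 24 of them lacked one in KO Treg replicate 2.

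**Figure D1:**
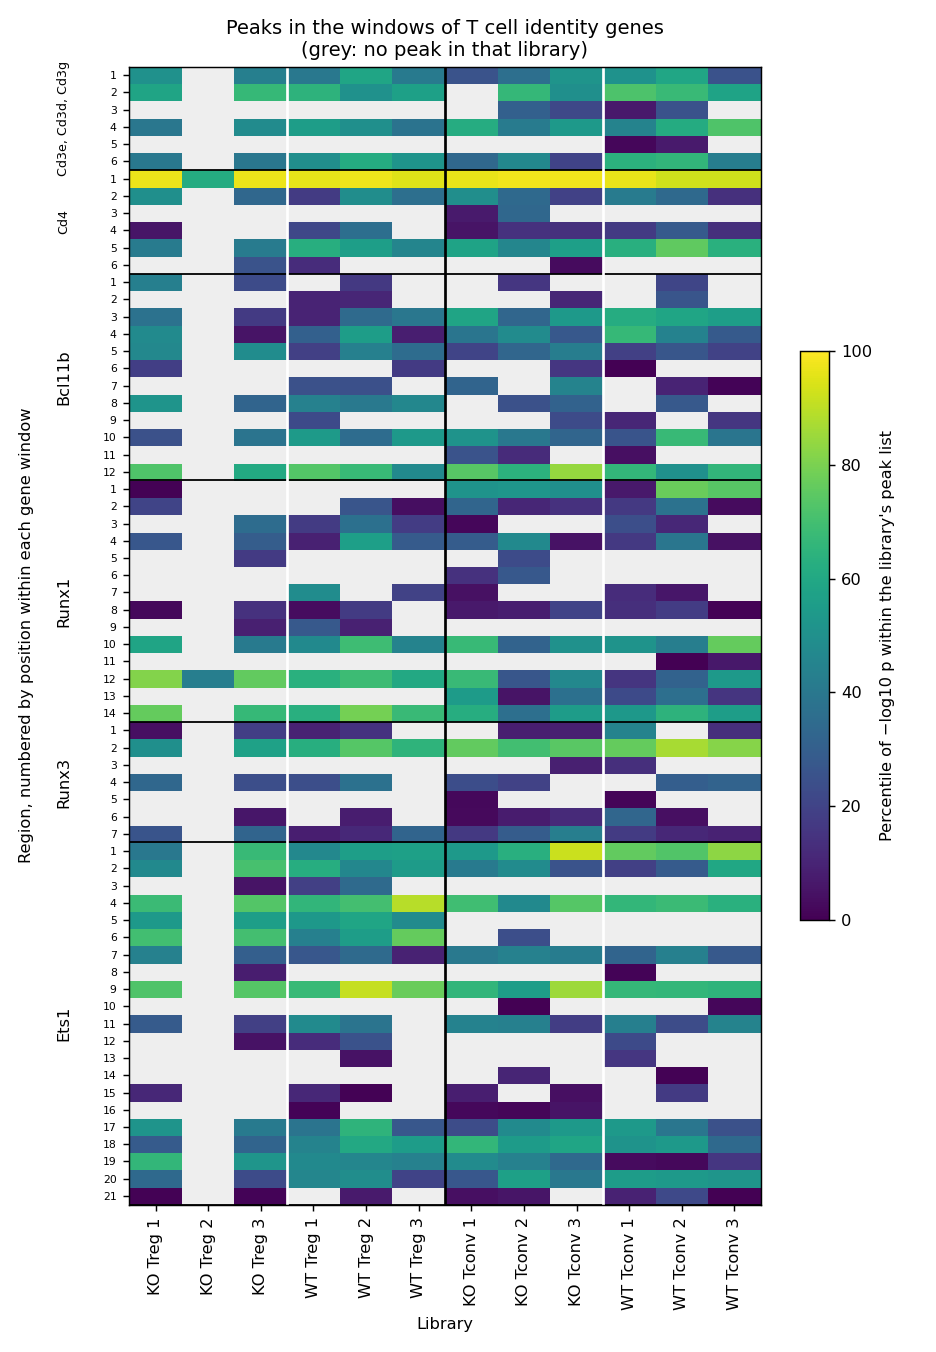
Percentile of −log10 p (color, 0 to 100) in each of the 66 regions (rows, numbered by position within each gene window) and 12 libraries (columns); grey means no peak. Shared regions run across all libraries except KO Treg 2, which shows 2 peaks, and Ets1 regions 5 and 6 and Runx1 regions 1 and 13 show the blocks that differ between Treg and Tconv.

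The Cd3 window (chr9:44770000-44830000) held 6 regions, and 3 of them were shared. In the GRCm38.p6 gene order the genes run Cd3g, Cd3d, Cd3e between Ube4a and Mpzl2, but no gene positions on NCBIM37 were used, so a region could not be given to 1 of the 3 genes. The number of regions with a peak was 4, 0 and 4 in KO Treg libraries (replicates 1, 2 and 3) and 4 in each WT Treg library. It was 3, 5 and 5 in KO Tconv libraries and 6, 6 and 4 in WT Tconv libraries. Leaving out KO Treg replicate 2, Treg libraries had 4 ± 0 regions (SD, n = 5) and Tconv libraries 4.83 ± 1.17 (SD, n = 6), and the ranges overlapped.

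The region with the highest mean percentile of that window, chr9:44788233-44788670, had a peak in 10 libraries. Its percentiles were 58.4 and 67.1 in KO Treg replicates 1 and 3 and 64.8, 50.5 and 57.0 in WT Treg. They were 66.4 and 49.8 in KO Tconv replicates 2 and 3 and 72.1, 67.9 and 58.0 in WT Tconv. The peak was missing in KO Tconv replicate 1 as well as in KO Treg replicate 2, and the percentiles of the groups overlapped. Next to it, 793 bp away, chr9:44789464-44790303 had a peak in 4 Tconv libraries, at percentiles of 30.7 and 21.5 in KO Tconv replicates 2 and 3 and 6.85 and 25.2 in WT Tconv replicates 1 and 2, and in 0 of 6 Treg libraries. This difference of 4 libraries fell under the call used here, and it was Tconv-enriched where KO Treg replicate 2 was left out and 4 was enough. The region was singled out after its values were seen. The widest region of the window, chr9:44793683-44795426, spanned 1744 bp and was shared, at a mean percentile of 51.6 ± 10.7 (SD, n = 11).

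The last region of the Cd3 window, chr9:44817294-44818857, was shared. Its percentiles were 40.1 and 39.5 in KO Treg replicates 1 and 3 and 49.5, 61.3 and 51.6 in WT Treg, and 33.8, 46.8 and 20.1 in KO Tconv and 64.3, 65.6 and 42.5 in WT Tconv. KO lay under WT in Treg without overlap, and in Tconv the values overlapped between KO Tconv replicate 2 and WT Tconv replicate 3.

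The Cd4 window (chr6:124780000-124850000) also held 6 regions, 3 of them shared. Its libraries had 4, 1 and 4 regions with a peak in KO Treg and 5, 4 and 3 in WT Treg, and 5 in each KO Tconv library and 4 in each WT Tconv library. KO and WT Tconv therefore did not overlap in this count, but with equal numbers of peaks per list the KO minus WT difference was −0.667 regions, against 1 with the lists as deposited. The strongest region of all 66, chr6:124778743-124780210, crosses the edge of the window, mostly outside it, and had a peak in all 12 libraries. Its percentiles were 97.2, 61.3 and 96.9 in KO Treg and 96.2, 97.4 and 95.1 in WT Treg, and 96.6, 97.8 and 98.0 in KO Tconv and 96.5, 92.9 and 92.9 in WT Tconv. In the GRCm38.p6 gene order Gpr162 precedes Cd4 and Lag3 follows it, and whether the region belongs to Cd4 or to a neighbour was not determined.

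Inside the window the strongest shared region was chr6:124835151-124836146. Its percentiles were 41.5 and 41.6 in KO Treg replicates 1 and 3 and 62.7, 55.9 and 45.5 in WT Treg, and 58.0, 46.1 and 56.6 in KO Tconv and 63.3, 75.6 and 63.5 in WT Tconv. In both cell types every KO value lay under every WT value. The other shared region, chr6:124807033-124807548, had a mean percentile of 34.5 ± 12.9 (SD, n = 11).

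The Bcl11b window (chr12:109100000-109300000) held 12 regions, 5 of them shared. KO Treg libraries had 8, 0 and 7 regions with a peak and WT Treg libraries 9, 9 and 7, against 7, 8 and 10 in KO Tconv and 8, 9 and 7 in WT Tconv. Without KO Treg replicate 2 the means were 8 ± 1 in Treg (SD, n = 5) and 8.17 ± 1.17 in Tconv (SD, n = 6), a difference within the spread between libraries. The strongest region, chr12:109242083-109242517, had percentiles of 72.6 and 60.6 in KO Treg replicates 1 and 3 and 73.1, 67.4 and 47.3 in WT Treg, and of 74.1, 64.2 and 84.1 in KO Tconv and 66.4, 50.2 and 66.0 in WT Tconv. The groups overlapped. The widest region, chr12:109158391-109160125 (1735 bp), had percentiles of 37.8 and 17.2 in KO Treg replicates 1 and 3 and 9.98, 34.5 and 39.6 in WT Treg, and of 58.6, 32.9 and 54.2 in KO Tconv and 61.9, 58.9 and 56.1 in WT Tconv. Here 5 of the 6 Tconv values lay above every Treg value, with KO Tconv replicate 2 the exception. How many of all regions came as near to a split was not counted, so nothing is read from it. The region chr12:109231044-109231894 was also shared, at 42.1 ± 13.2 (SD, n = 11).

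The Runx1 window (chr16:92590000-92850000), the longest, held 14 regions, of which 4 were shared and 6 had a peak in 6 or fewer libraries. The counts were 7, 1 and 8 in KO Treg and 8, 8 and 7 in WT Treg, against 11, 10 and 8 in KO Tconv and 10, 11 and 9 in WT Tconv. Without KO Treg replicate 2, Treg libraries averaged 7.60 ± 0.548 regions (SD, n = 5) and Tconv libraries 9.83 ± 1.17 (SD, n = 6), and KO Tconv replicate 3 equalled the highest Treg libraries at 8. The other 5 Tconv libraries were above all Treg libraries. These counts take in the 2 regions of the window called Tconv-enriched below, so the counts and the calls are not separate observations.

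A cell type call was made where at least 5 more libraries of 1 cell type had a peak (6 against 6). By this rule 2 of the 66 regions (3.03%) were Tconv-enriched, beside 3.55% of all kept regions, and 1 (1.52%) was Treg-enriched, beside 3.2%. Both Tconv-enriched regions lay in the Runx1 window and the Treg-enriched region in the Ets1 window. Without KO Treg replicate 2, and with a difference of 4 libraries enough, the counts were 2 Treg-enriched, beside 6.21%, and 3 Tconv-enriched, beside 6.4%. The shares in the windows were at or under those of all regions in every case.

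The first Tconv-enriched region, chr16:92821996-92822512, had a peak in 0 of 6 Treg and 6 of 6 Tconv libraries. Its percentiles were 55.0, 5.41 and 37.01 in KO Tconv and 22.5, 36.5 and 15.3 in WT Tconv, and the authors' fold enrichment ran between 3.01 and 4.07. Fisher's exact test gave p = 0.00216 (two-sided), with a Benjamini-Hochberg adjusted p of 0.123 over all 32787 regions. With stricter peaks (−log10 q of at least 5) 4 Tconv libraries kept the peak and at 50% coverage of the region 3, so the call was lost under both. It lies between shared regions on both sides, 2622 and 2833 bp away. The second, chr16:92641169-92641661, had a peak in 1 Treg and 6 Tconv libraries (Fisher's exact p = 0.0152, adjusted p = 0.224). The Treg peak, in KO Treg replicate 1, stood at a percentile of 0.401, among the weakest of its list. The Tconv percentiles were 51.4, 52.5 and 49.6 in KO Tconv and 7.02, 77.1 and 73.9 in WT Tconv. WT Tconv replicate 1 was thus far under the other 5 Tconv libraries.

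The shared regions beside the first one tended the other way, with overlap between the cell types. The region chr16:92818599-92819373 had a peak in all 12 libraries, with percentiles of 81.3, 42.9 and 75.9 in KO Treg and 63.4, 68.5 and 60.2 in WT Treg, against 67.7, 26.9 and 46.8 in KO Tconv and 15.3, 31.6 and 53.6 in WT Tconv. Apart from KO Treg replicate 2, 5 of the 6 Tconv values lay under every Treg value, and KO Tconv replicate 1 lay among the Treg values. Here too the share of all regions as near to a split was not counted. The widest region of the window, chr16:92825346-92826791 (1446 bp), had percentiles of 76.2 and 66.9 in KO Treg replicates 1 and 3 and 63.2, 79.2 and 67.6 in WT Treg, and 62.4, 36.5 and 55.4 in KO Tconv and 53.2, 64.5 and 55.7 in WT Tconv. The Treg values were mostly higher, with an overlap at WT Tconv replicate 2. The region chr16:92801755-92802423 was also shared, at 52.7 ± 13.5 (SD, n = 11) with overlapping groups.

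**Figure D2:**
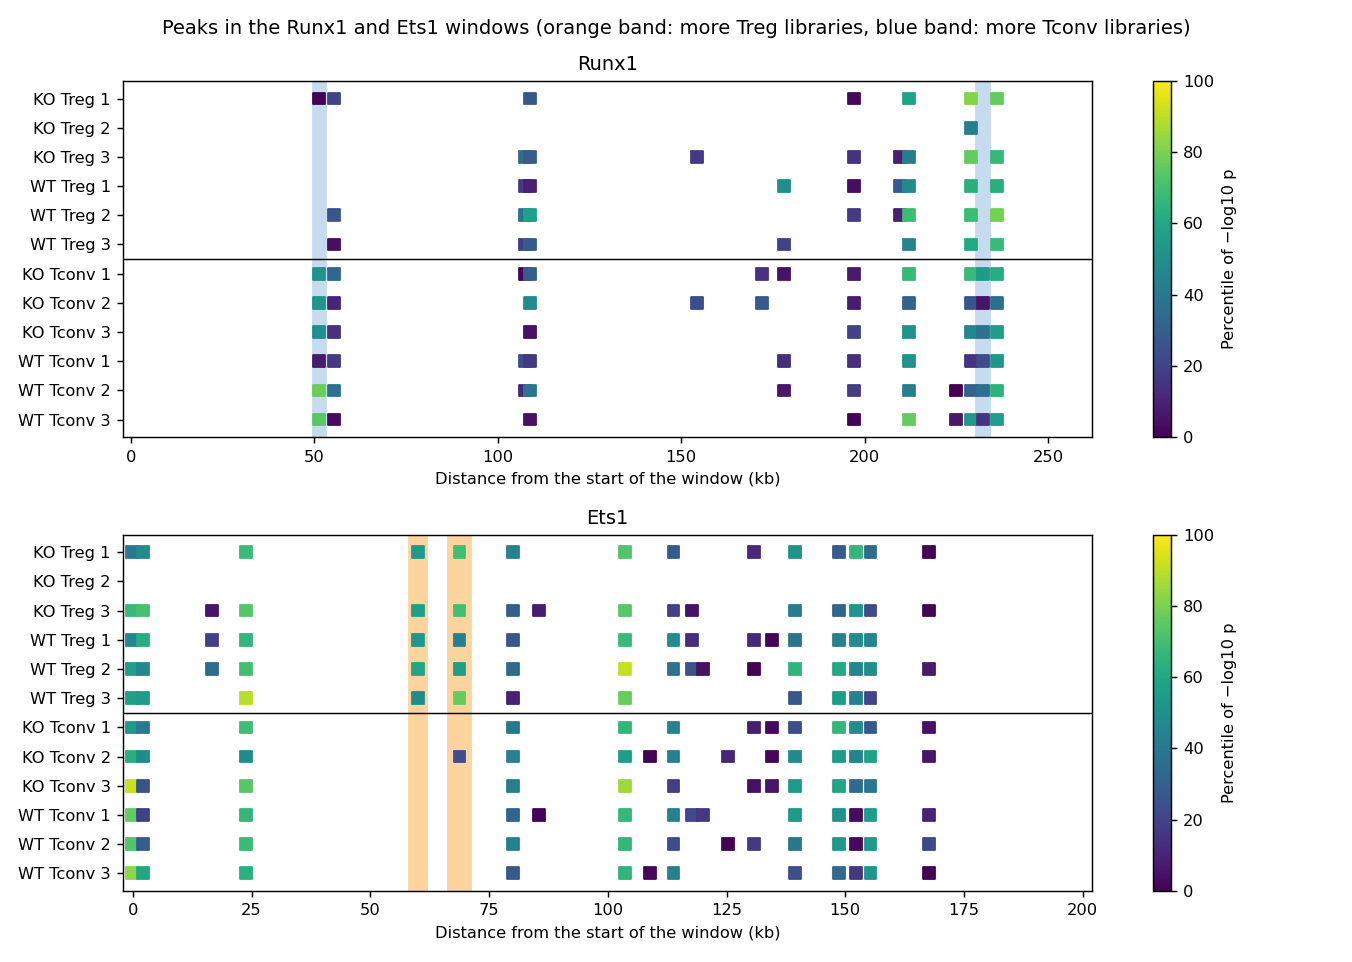
Peaks of the Runx1 (top) and Ets1 (bottom) windows in the 12 libraries (rows), drawn at the region's centre by distance from the start of the window in kb, with color for the percentile of −log10 p within the list. Bands mark regions with a difference of at least 5 libraries between Treg and Tconv, or of at least 4 without KO Treg 2; the blue bands hold peaks of 6 of 6 Tconv libraries and the orange bands of 5 of 6 Treg libraries.

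The Runx3 window (chr4:134650000-134760000) held 7 regions, 2 of them shared. KO Treg libraries had 4, 0 and 5 and WT Treg libraries 4, 5 and 2 regions with a peak, and KO Tconv libraries 5 each and WT Tconv libraries 6, 4 and 4. The ranges overlapped. Its strongest region, chr4:134676027-134676593, had a fold enrichment of 6.51 to 9.09 by the authors' caller. The percentiles were 49.6 and 57.3 in KO Treg replicates 1 and 3 and 62.9, 73.6 and 65.2 in WT Treg, and 76.1, 69.8 and 74.5 in KO Tconv and 76.2, 87.1 and 81.8 in WT Tconv. KO Treg was lowest and WT Tconv highest, and WT Treg and KO Tconv overlapped. The means were 61.7 ± 8.96 in Treg (SD, n = 5) and 77.6 ± 6.05 in Tconv (SD, n = 6), the widest gap in strongest peak among the 6 windows. KO Treg replicate 2 had no peak in the window. At Cd4 the Treg minus Tconv difference in strongest peak was 0.753 percentile points without KO Treg replicate 2 and −5.12 with it, and at Runx1 it was 9.8 without and 4.69 with that library. The other shared region, chr4:134759210-134759751 near the edge of the window, stood at 21.5 ± 11.5 (SD, n = 11). The region chr4:134708175-134708646 had a peak in 8 libraries, at 28.0 ± 6.07. The widest, chr4:134709530-134710360 (831 bp), had a peak in 2 Tconv libraries, at percentiles of 2.20 in KO Tconv replicate 1 and 1.18 in WT Tconv replicate 1.

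The Ets1 window (chr9:32400000-32600000) held the most regions, 21, of which 9 were shared. Peaks covered 3.93% of the window on average in Treg libraries without KO Treg replicate 2 and 3.09% in Tconv libraries. The counts of regions with a peak were 14, 0 and 16 in KO Treg and 16, 17 and 11 in WT Treg, against 13, 15 and 12 in KO Tconv and 14, 13 and 12 in WT Tconv. The ranges overlapped, at 14.8 ± 2.39 in Treg (SD, n = 5, without KO Treg replicate 2) and 13.2 ± 1.17 in Tconv (SD, n = 6).

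Peaks in a pair of adjacent Ets1 regions came from Treg libraries, with 1 exception. The region chr9:32459670-32460324 had a peak in 5 of 6 Treg and 0 of 6 Tconv libraries. Its percentiles were 53.5 and 56.2 in KO Treg replicates 1 and 3 and 53.4, 59.0 and 48.1 in WT Treg, with an SD of 4.02 over these 5 libraries. The fold enrichment lay between 6.16 and 6.91. The library without a peak was KO Treg replicate 2, which had none in the whole window. Fisher's exact test gave p = 0.0152 (two-sided), with an adjusted p of 0.224 over all regions. It did not pass the adjustment at 0.05, and no other region of the whole data set did. The next region, 7587 bp away, chr9:32467912-32469699, had a peak in the same 5 Treg libraries, at percentiles of 69.9 and 70.0 in KO Treg replicates 1 and 3 and 43.6, 55.7 and 76.5 in WT Treg, and in KO Tconv replicate 2 at 24.2. That difference of 4 libraries met the call with KO Treg replicate 2 left out, where 4 is enough. This region was named after its values were seen. Both regions had a peak in KO Treg replicates 1 and 3 and in all 3 WT Treg libraries.

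The strongest regions of the Ets1 window were shared. The region chr9:32503204-32504036 had percentiles of 72.4 and 73.5 in KO Treg replicates 1 and 3 and 67.4, 91.0 and 77.1 in WT Treg, and of 65.8, 55.5 and 85.4 in KO Tconv and 66.5, 66.2 and 65.0 in WT Tconv. The region chr9:32423235-32424499 stood at 68.6 ± 9.73 (SD, n = 11) with overlapping groups. At the window's edge, chr9:32399335-32400234 had percentiles of 40.1 and 67.6 in KO Treg replicates 1 and 3 and 46.8, 56.1 and 56.7 in WT Treg, against 54.1, 63.1 and 91.9 in KO Tconv and 75.8, 73.0 and 82.8 in WT Tconv. Each WT Tconv value lay above each Treg value, while KO Tconv overlapped Treg. The share of all regions with such a split was not computed, so nothing is read from it. The widest region, chr9:32566482-32568899 (2418 bp), was weak, at 6.21 ± 7.23 (SD, n = 8).

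**Figure D3:**
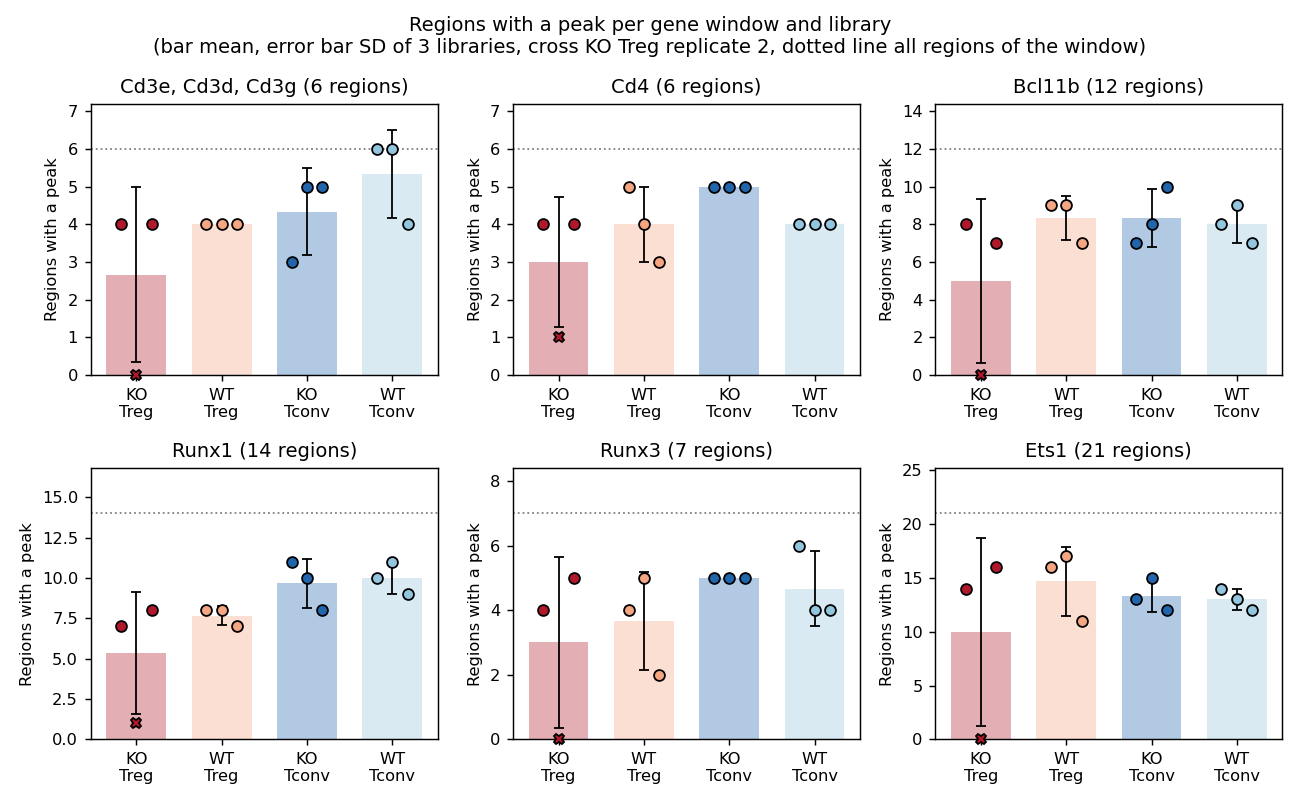
Number of regions with a peak (vertical axis) in each library (points) of the 4 groups, for the 6 gene windows; bars show means, error bars the SD of 3 libraries, the cross KO Treg replicate 2 and the dotted line the number of regions in the window. Runx1 is the window where Tconv libraries, at 8 to 11 regions, sit above or level with Treg libraries, at 7 or 8 apart from KO Treg replicate 2. The Runx1 counts take in the 2 Tconv-enriched regions.

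A region counted as lost when 3 of 3 WT and 0 of 3 KO libraries had a peak, and as gained in the opposite case. In Treg, 0 of the 66 regions were lost and 0 gained, beside 0.973% and 0.0305% of all kept regions. KO Treg replicate 2 had a peak in 2 of the 66 regions, both present in all 12 libraries, so no region could be gained, and nothing is read from that count. Without this library, where 2 KO libraries stood against 3 WT libraries, 0 were lost, beside 0.977%, and 0 gained, beside 1.08%. In Tconv, 0 were lost, beside 0.189%, and 1 was gained, beside 0.793%. With 3 libraries against 3, Fisher's exact test cannot go under p = 0.1, so none of these counts rests on a test. The gained region, chr9:32534178-32535031 in the Ets1 window, stood at percentiles of 2.01, 1.54 and 5.21 in KO Tconv, and it also had a peak at 1.01 in WT Treg replicate 1. These are among the weakest peaks of their lists, and with stricter peaks or equal numbers of peaks per list no KO Tconv library kept it. With stricter peaks another region was gained in its place.

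Presence does not show strength, so the 14727 regions with a peak in all 11 libraries other than KO Treg replicate 2 were ranked among themselves by −log10 p in each library, which gives ranks from lists of equal length. Of these regions 26 lay in the windows. The ranks are a description and were set side by side after the data were seen. No region of the 26 ranked higher in every Treg than in every Tconv library, or lower, beside 3.52% and 3.15% of all common regions. In Treg, every KO library lay under every WT library at 4 regions (15.4%), beside 10.3%, and above at 4 (15.4%), beside 11.0%. In Tconv this held at 4 (15.4%), beside 6.1%, and at 2 (7.69%), beside 7.08%. KO lay under WT in every library of both cell types at 3 of the 26 (11.5%), beside 0.978% of all common regions, and above WT in both at 1 (3.85%), beside 1.3%.

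The 3 regions were 1 each in the Cd3, Cd4 and Runx3 windows. In the Cd3 window chr9:44817294-44818857 ranked at 16.1 ± 0.744 in KO Treg (SD, n = 2) and 28.9 ± 5.06 in WT Treg (SD, n = 3), and at 11.4 ± 9.11 in KO Tconv and 39.0 ± 10.8 in WT Tconv (SD, n = 3 each). The Cd4 region from 124835151 ranked at 17.5 ± 0.346 in KO Treg (SD, n = 2) and 29.8 ± 8 in WT Treg (SD, n = 3), and at 28.5 ± 7.01 in KO Tconv and 51.2 ± 8.66 in WT Tconv (SD, n = 3 each). The Runx3 region from 134676027 ranked at 29.5 ± 5.23 in KO Treg (SD, n = 2) and 46.4 ± 6.35 in WT Treg (SD, n = 3), and at 56.1 ± 4.99 in KO Tconv and 71.7 ± 8.59 in WT Tconv (SD, n = 3 each). With stricter peaks the same 3 regions separated, out of 17, beside 0.924% of the common regions then left. That setting ranks the same −log10 p values among fewer regions, so it is no separate check. Ranked by the authors' fold enrichment in place of −log10 p, the Cd3 region alone did, 1 of 26 beside 0.808%.

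The opposite case was chr9:32551292-32553095 in the Ets1 window, named after its values were seen. Its percentiles within the lists were 66.2 and 52.0 in KO Treg replicates 1 and 3 and 47.5, 45.8 and 43.9 in WT Treg, and 48.1, 43.9 and 34.1 in KO Tconv and 3.04, 1.98 and 15.7 in WT Tconv. WT Tconv libraries were far lower than the others, but they had a peak there, so the region counted as shared. Its fold enrichment was 2.79 to 3.33 in WT Tconv and 3.31 to 4.29 elsewhere, and ranked by fold, or with stricter peaks, it did not separate in both cell types. Yield differed in parallel in Tconv, with 24649 to 25283 peaks in KO and 21269 to 24546 in WT libraries, and its part in these ranks was not tested.

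**Figure D4:**
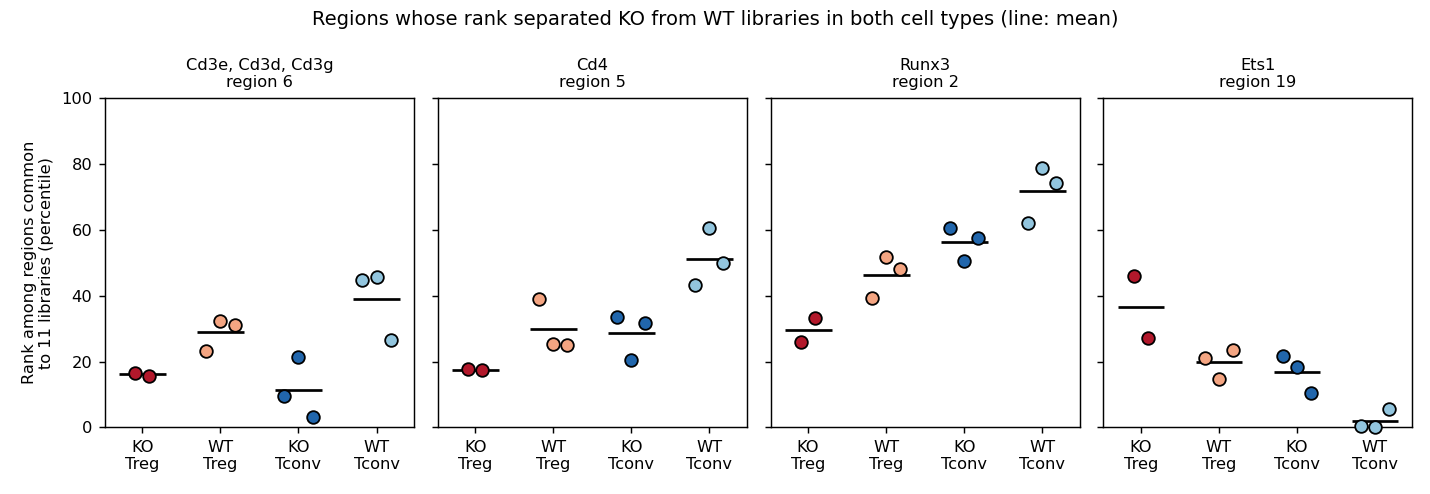
Rank (percentile, vertical axis) among the 14727 regions common to 11 libraries, for the 4 regions where KO and WT libraries did not overlap in either cell type; points are libraries, lines group means, and KO Treg has 2 points because replicate 2 was left out. The Cd3, Cd4 and Runx3 regions show KO under WT in Treg and in Tconv, and the Ets1 region shows KO above WT.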

How the data were processed

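One list of broad peaks per library was deposited and used, without pooling. The submitters' processing notes list MACS2, Bowtie2, DESeq2, DiffBind and Trim Galore (version 0.4.4) without saying what each did, and NCBIM37 as the build. Input control, read filters and cut-site shifting are not stated in the sources. Sample numbers inside the peak names follow another order than the deposit, whose assignment was used. For every peak the deposited lists give the authors' fold over background (a ratio), −log10 of p and of q, and a score. The score was not used.

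Overlapping or touching peaks were merged, and 1 bp of a peak placed a library in a region. Percentiles came from column 8 (−log10 p). Fisher's exact test (two-sided) was adjusted by Benjamini-Hochberg over all 32787 kept regions. Named in each window were the 3 regions highest in mean percentile, the widest and every called region; exceptions are stated. Genes, windows and call rules were chosen with earlier results of these data known. No count test was run, since the lists hold no counts, and read depth is unknown. Presence was equal in at most 85.1% of kept regions between any 2 libraries, so no list was counted as a duplicate. RefSeq tables are of GRCm38.p6. Python 3.11.15, scipy 1.17.1, numpy 2.4.6, pandas 2.3.3 and matplotlib 3.10.9 were used.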

Additional observations from a re-analysis of the deposited data

How the results depend on the processing

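Settings tried were a q filter (−log10 q of 5 or more, "stricter"), equally long lists, 50% coverage, joining over 200 bp gaps, no library minimum, other call rules and each library left out. Common ranks were added after the data were seen. No cause was tested for any change below. Unless a share is printed, the counts below were made in the windows alone. The share of all kept regions under the same setting was not computed, so they are not read as results about these genes. Treg-enriched regions (1) numbered 2 with a difference of 4 and within WT alone. They numbered 0 with a replicate block (libraries paired by number, sign test), with a difference of 6 and within KO alone. Each of these settings needs a peak in KO Treg replicate 2, whose 2 peaks in the windows lay in regions present in all 12 libraries. Those counts were therefore fixed at 0, and nothing is read from them. Treg-enriched regions also numbered 0 by Fisher's exact test adjusted over all regions. By that test 0 of the 32787 kept regions had an adjusted p under 0.05, and the smallest was 0.123. A count of 0 in the windows is therefore not particular to them. Before adjustment, 2213 regions, 3 of them in the windows, had a p under 0.05 by that test. Tconv-enriched regions (2) numbered 1 with stricter peaks, with a replicate block and with a difference of 6, and 0 by the adjusted test. Adjusted only over the 5679 regions present in 5 to 7 libraries, 2213 (39.0%) passed 0.05, and 3 of the 10 in the windows (30.0%). These are the regions of the call itself, since only a difference of at least 5 libraries gives an unadjusted p under 0.05. They are therefore no further evidence for it. Deviations of same-numbered libraries correlated at −0.0283 to 0.0608, and a library correlated best with its own number in 8 of 24 comparisons. With 3 libraries to pick from in each comparison, that is the number expected by chance. These pairs took in KO against WT as well as Treg against Tconv. They cannot show whether a number marks libraries of the same animal. For lost and gained regions the block asks for the same 3 of 3 against 0 of 3 libraries as the main call, so those counts could not move. Gained regions in KO Tconv (1) numbered 0 with equal lists and 2 at 50% coverage. Shared regions (26) numbered 17 with stricter peaks and 4 at 50% coverage. Of regions per window, KO minus WT in Tconv at Cd4 (1) was 0 with stricter peaks, −0.667 with equal lists and 0.667 at 50% coverage. At 50% coverage it was 0.333 at Cd3 (main −1), −2 at Runx1 (main −0.333, also −2 with equal lists) and 2.67 at Ets1 (main 0.333). Treg minus Tconv at Runx3 (−1.5) was 0.167 with stricter peaks. Leaving out single libraries gave 1 to 2 Treg-enriched regions and 2 to 6 Tconv-enriched regions. With a difference of 4 and without KO Treg replicate 2, 6.4% of all regions were Tconv-enriched, against 3.55% by the main call. The Treg count was 2 without KO Treg replicate 2 or any Tconv library. The Tconv count was 6 without WT Treg replicate 2, 5 without KO Treg replicate 1 and 4 without KO Treg replicate 3, WT Treg replicate 1 or WT Treg replicate 3, with a difference of 4 enough by construction. Lost in KO Treg spanned 0 to 2 (2 without WT Treg replicate 3, 1 without KO Treg replicate 3 or WT Treg replicate 2). In KO Tconv, lost spanned 0 to 1 (1 without WT Tconv replicate 1 or 3) and gained 1 to 3 (3 without KO Tconv replicate 3). At Cd4, KO minus WT in Tconv spanned 0.5 to 1 (0.5 without KO Tconv replicate 1 or 2). Without read depth, absence of a peak may be weak signal.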
